A study of Mus musculus with 12 samples.

Results

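The genes described here are 9 that build or remodel the axon: the neurofilament subunits *Nefl*, *Nefm*, *Nefh* and *Ina*, the tau gene *Mapt*, the stathmins *Stmn1*, *Stmn2* and *Stmn3*, and the growth cone gene *Gap43*. They were taken by name, as known members of these families, from the 27179 genes listed in the deposited counts. All 9 passed the filter on low counts and were among the 14185 genes tested. Polyadenylated RNA was sequenced from primary hippocampal neurons of C57BL/6 mice, cultured from newborn pups for 17 or 18 days on Transwell inserts, in which neurites grow through a porous membrane and can be lysed apart from the somas. The labels give this strain for all 12 libraries, while the methods of the study name FVB mice as well for its hippocampal cultures. The groups were Ctrl somas, MG132 somas, Ctrl neurites and MG132 neurites, with 3 libraries in each. MG132, an inhibitor of the proteasome, was given at 10 μM for 7 h. The other 6 libraries came from Ctrl cultures without it, which the paper describes as exposed to DMSO. The labels do not say whether replicates came from separate cultures or animals, so the p-values measure the spread between these libraries. The neurite fraction holds axons and dendrites together, and a lysed membrane can also carry other cells that sit on it.

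Neurofilaments are the intermediate filaments of neurons. They assemble from a light, a medium and a heavy chain together with α-internexin, and their number sets the calibre of an axon. Tau binds and bundles axonal microtubules, stathmins bind tubulin dimers and favour microtubule disassembly, and the GAP43 protein lies under the membrane of the growth cone, where it acts on actin. *Stmn2* and *Gap43* are widely used as marks of growing and regenerating axons, and neurofilament and tau proteins accumulate in diseases of protein quality control.

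The neurofilament genes *Nefl* (chr14:68083863-68089095, GRCm38) and *Nefm* (chr14:68119545-68125004) are neighbours on opposite strands, *Nefh* lies at chr11:4938754-4948064 and *Ina* at chr19:47014681-47025327. *Mapt* lies at chr11:104229409-104332090, *Stmn1* at chr4:134468320-134473843, *Stmn2* at chr3:8509527-8561604, *Stmn3* at chr2:181306459-181314500 and *Gap43* at chr16:42248552-42340651. Among the pairs of stathmins and of neurofilament genes, *Stmn1* and *Stmn2* shared the longest run of identical coding bases. The stretch of 75 coding bases most similar among the 3 stathmins is therefore shown, to let their separation by sequencing be judged. No such stretch was sought for the neurofilament genes. It was read from GENCODE M21 transcripts, 5′ to 3′, and capitals mark the positions at which the 3 genes differ. The stretch was chosen after the values had been seen.
Stmn1: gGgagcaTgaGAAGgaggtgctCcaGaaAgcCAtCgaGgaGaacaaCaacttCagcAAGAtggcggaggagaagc
Stmn2: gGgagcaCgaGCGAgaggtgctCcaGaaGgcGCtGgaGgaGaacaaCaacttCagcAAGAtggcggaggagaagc
Stmn3: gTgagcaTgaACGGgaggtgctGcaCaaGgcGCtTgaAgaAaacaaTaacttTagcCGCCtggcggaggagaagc
Within this stretch *Stmn1* differed from *Stmn2* at 8 positions and *Stmn3* from *Stmn2* at 15. The longest run of identical coding bases was 43 for *Stmn1* and *Stmn2*, and 23 for any pair of neurofilament genes, *Nefm* and *Nefh*, both shorter than a window of 75 bases. Windows of that length were shared with another gene for *Stmn1* (30.5% of its windows, with the pseudogene *Gm11223*), for *Nefl* (31.3%, with an annotated *Nefm* transcript on the opposite strand in GENCODE M21) and for *Ina* (12.1%, with *Nt5c2*, which overlaps it on the opposite strand). The counts of *Stmn1* and *Ina* are therefore uncertain to the extent that their reads were split or dropped. For *Nefl* and *Nefm*, and so for their ratio, this holds only if that longer *Nefm* transcript was among the gene models counted, which is not known here: the RefSeq models of the 2 genes do not overlap. The reference transcripts of the other 6 genes, that of *Nefm* included, shared no window with another gene.

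The 3′ UTRs of *Gap43* and *Mapt* mRNAs are known targets of neuronal ELAV-like proteins, which bind AU-rich and GU-rich sequence. Because *Gap43* and *Mapt* are the members whose levels differed most clearly between fractions or treatments, 1 GU-rich site of each is shown, with the hexamer TGTGTG and its overlapping copies in capitals, beside an AU-rich site of *Stmn2*, which was called in neurites, with the pentamer ATTTA in capitals. These searches were chosen after the values had been seen.
Gap43 (chr16:42248655-42248684, minus strand): ctgttccaagTGTGTGTGTGcaatgttccg
Mapt (chr11:104328901-104328930, plus strand): ggtaacgtgggTGTGTGTGccccttctgca
Stmn2 (chr3:8560539-8560568, plus strand): ttattttgtaaatATTTAcatttttgttaa
In the transcript sense, TGTGTG was found 5 times in the whole 3′ UTR of *Gap43*, 4 times in that of *Mapt* and once each in those of *Nefl*, *Nefm* and *Stmn2*, counting overlapping copies. In the first 300 bases after the stop codon it was found only in *Gap43* among the 9 genes, and 17.4% of the 15010 genes with a 3′ UTR of that length held it there. The GU-rich sites shown for *Gap43* and *Mapt* start 345 and 714 bases after the stop codon, outside this window, so that share does not apply to them. No share of genes was computed for whole 3′ UTRs. ATTTA was found in that window of *Mapt*, *Stmn2* and *Gap43*, against 32.3% of genes, and TATTTAT, which contains it, in none of the 9, against 6.31%. In whole 3′ UTRs ATTTA was found 3 times in *Mapt*, 2 times in *Stmn2* and once each in *Gap43*, *Nefl*, *Nefm* and *Nefh*. A match is a description of these letters and not evidence of binding.

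Library totals ranged from 4247610 to 22166347 counts. Values are given as CPM, counts scaled to library size with edgeR's TMM factors, which ranged from 0.567 to 1.44. The 12 neuronal marker genes, among them *Rbfox3*, *Snap25* and *Syt1*, were found in every group, with summed levels of 1100 to 1560 CPM in Ctrl somas, 831 to 1410 in MG132 somas, 606 to 1280 in Ctrl neurites and 508 to 1000 in MG132 neurites. Astrocyte markers summed to 4780 to 5880 CPM in Ctrl somas, 2500 to 3250 in MG132 somas, 20900 to 25900 in Ctrl neurites and 9680 to 19800 in MG132 neurites, so the labelled neurons were cultured with glia. Nuclear-retained RNAs summed to 5930 to 7110 CPM in Ctrl somas and 1850 to 4100 in Ctrl neurites. In such bulk samples, fewer cells of a type and less RNA per cell cannot be told apart. Scaling mattered for the comparison of fractions: on total counts without TMM factors the median log2 ratio of all genes, neurites against somas, moved from -0.039 to -0.70 in Ctrl and from -0.082 to -0.86 in MG132, and with library sizes set by the neuronal markers it moved to 0.56 and 0.54. The share of called genes that were higher in neurites went from 82.9% to 16% and 99.5% in Ctrl, and from 76.9% to 6.12% and 99.5% in MG132. For MG132 against Ctrl, that share was 62.4% in somas and 63.3% in neurites, against 54.1% and 47.2% on total counts and 75.6% and 87.4% with neuronal markers.

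**Figure D1:**
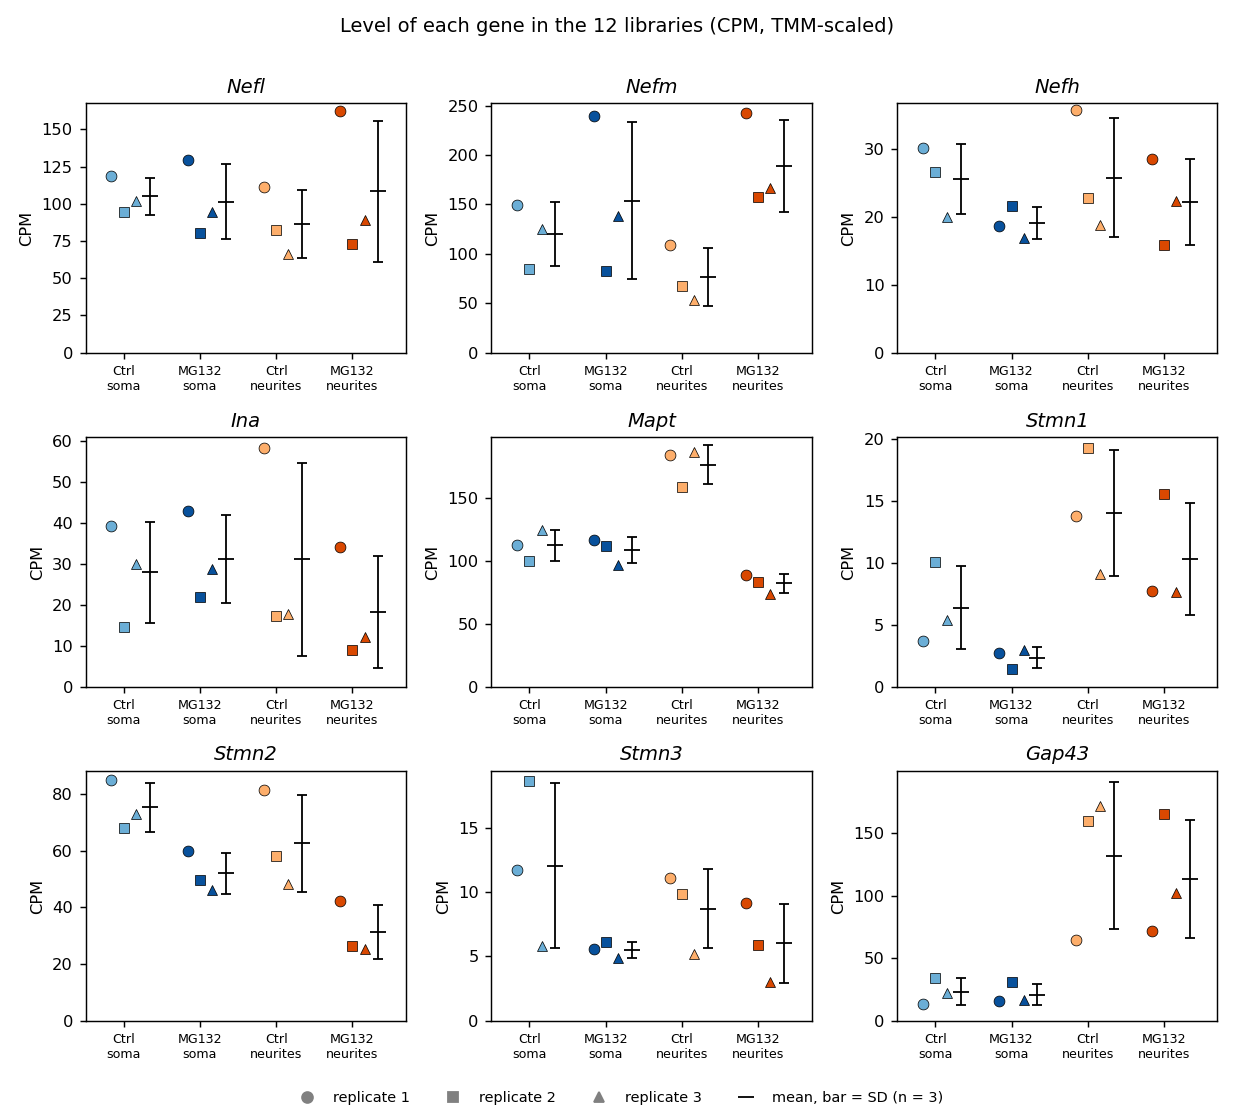
CPM of each gene (y axis, from 0) in the 3 libraries of each group (x axis), with symbols for replicate numbers and a bar for the mean and SD. *Gap43* was higher in all 6 neurite libraries than in all 6 soma libraries, and *Mapt* in the 3 Ctrl neurite libraries (159 to 187 CPM) than in the other 9, an order between fractions that on total counts gave a log2 ratio of -0.022.

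Levels can be compared between genes only per length, so CPM was divided by the exon length in kb. In Ctrl somas, *Stmn2* (36.3 ± 4.17 CPM per kb, SD, n = 3), *Nefm* (36.0 ± 9.82) and *Nefl* (31.1 ± 3.698) had the highest levels and overlapped. *Mapt* followed at 20.7 ± 2.26, below every *Nefl* library. *Gap43* (16.4 ± 7.57), *Stmn3* (10.6 ± 5.63), *Ina* (8.61 ± 3.82), *Nefh* (6.40 ± 1.29) and *Stmn1* (6.02 ± 3.14) overlapped each with its neighbour in this order. In MG132 somas *Nefm* stood first at 46.1 ± 23.8 CPM per kb and *Stmn1* last at 2.21 ± 0.789. The order was different in neurites, where *Gap43* came first in both treatments. It measured 93.0 ± 41.4 CPM per kb in Ctrl neurites, with no library as low as any of *Mapt* (32.6 ± 2.91), and 79.8 ± 33.5 in MG132 neurites, where it overlapped *Nefm* (56.6 ± 14.0). *Nefh*, the heavy chain, was at 6.46 ± 2.21 CPM per kb in Ctrl neurites, the lowest of the 9, and *Stmn3* was lowest in MG132 neurites at 5.29 ± 2.69.

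**Figure D2:**
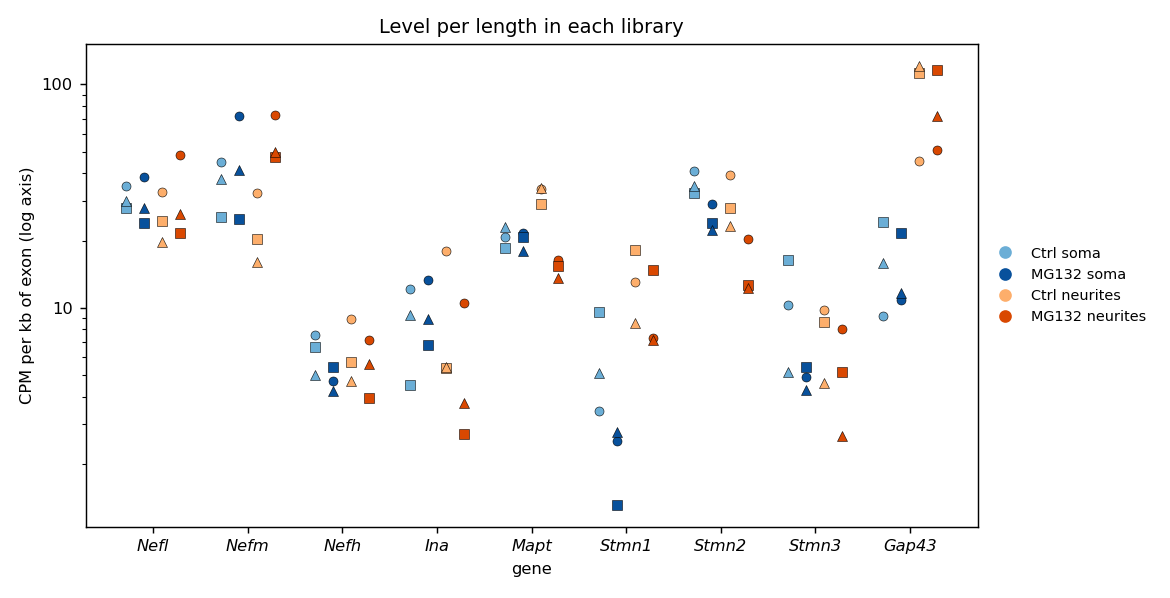
CPM per kb of exon (log y axis) of the 9 genes (x axis) in each library, coloured by group, with circles, squares and triangles for replicates 1, 2 and 3. *Gap43* spans the widest range between fractions, and *Nefh*, *Ina*, *Stmn1* and *Stmn3* lie below the other genes in most libraries.

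Among the neurofilament subunits, *Nefm* had the largest difference between MG132 and Ctrl neurites, but no subunit was called in either fraction by the rule given next. A gene was called when edgeR's quasi-likelihood test gave a Benjamini-Hochberg adjusted p under 0.01 over all genes tested. By this rule MG132 called 0 of the 9 members in somas, where 9.52% of all genes were called higher and 5.72% lower, and in neurites 0 were called higher and 2 lower, where 9.76% and 5.67% of all genes were. The median log2 fold change of the 9 members was -0.18 in somas and -0.42 in neurites, beside -0.070 and -0.16 over all genes, and 2 of 9 values were positive in each fraction. The 0 in somas stands beside 3 members with an unadjusted p under 0.05, all lower (*Stmn1*, *Stmn2* and *Stmn3*), and 0 called by DESeq2 or with the replicate block. The 0 higher in neurites stands beside 1 member, *Nefm*, with an unadjusted p under 0.05, which DESeq2 and the block both called. The 4 groups carry the same replicate numbers. With the number as a block in the edgeR model 25.1% of all genes were called in somas and 25% in neurites, in either direction.

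*Nefl*, the light chain on which the filament is built, measured 119, 94.4 and 102 CPM in Ctrl soma replicates 1, 2 and 3 and 129, 80.7 and 94.7 in MG132 somas. In neurites it measured 111, 82.5 and 66.3 CPM in Ctrl and 162, 73.2 and 89.3 in MG132. The groups overlapped in both fractions. With MG132 the log2 fold change came to -0.047 in somas (95% interval -0.64 to 0.54, edgeR adjusted p = 0.920) and 0.32 in neurites (-0.28 to 0.91, adjusted p = 0.429).

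*Nefm*, the medium chain, measured 150, 84.8 and 125 CPM in Ctrl somas and 240, 83.1 and 138 in MG132 somas. In Ctrl neurites it was at 109, 67.7 and 53.3 CPM, and in MG132 neurites at 242.5, 157 and 167. The soma groups overlapped, and each MG132 neurite library was above each Ctrl neurite library. In somas the log2 fold change came to 0.36 (SE 0.34, adjusted p = 0.476), and in neurites to 1.30 (SE 0.35, a 2.47-fold higher level, edgeR adjusted p = 0.0130), higher in 3 of 3 same-numbered pairs but just outside the threshold. With the replicate block the neurite value was 1.32 and was called (edgeR adjusted p = 4.92e-06), and DESeq2 also called it (adjusted p = 0.00262). It was called as well with the most abundant gene and the mitochondrial genes left out (1.41, edgeR adjusted p = 0.00973), without a filter on low counts and with only the groups compared, and not on total counts (1.18, adjusted p = 0.0266) or with neuronal markers (1.61, adjusted p = 0.0115). *Nefm* in neurites was called in 4 of 12 fits that left out 1 library, those without Ctrl neurites replicate 1, Ctrl soma replicate 2, MG132 soma replicate 1 or MG132 soma replicate 2.

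*Nefh*, the heavy chain of mature axons, measured 30.1, 26.6 and 20 CPM in Ctrl somas and 18.7, 21.6 and 16.9 in MG132 somas. Its neurite levels were 35.7, 22.8 and 18.8 CPM in Ctrl and 28.5, 15.8 and 22.4 in MG132. Both pairs of groups overlapped, with log2 fold changes of -0.43 in somas (95% interval -1.03 to 0.17, adjusted p = 0.282) and -0.22 in neurites (-0.83 to 0.39, adjusted p = 0.611). *Ina*, which encodes α-internexin, measured 39.2, 14.6 and 29.9 CPM in Ctrl somas and 43.0, 22.0 and 28.7 in MG132 somas. In neurites it measured 58.2, 17.3 and 17.7 CPM in Ctrl and 34, 8.86 and 12.1 in MG132, lower with MG132 in each same-numbered pair although the groups overlapped. The log2 fold changes were 0.16 (95% interval -0.96 to 1.29, adjusted p = 0.853) in somas and -0.78 (-1.95 to 0.39, edgeR adjusted p = 0.318) in neurites. Libraries numbered 1 held the highest level of *Nefl*, *Nefm* and *Ina* in all 4 groups and of *Nefh* in 3 of 4, and summed neuronal markers were also highest in the libraries numbered 1. The part of this in the results was not tested, other than by the block.

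No neurofilament subunit was called between fractions by edgeR with TMM factors and without the replicate block. On total counts *Nefm* was called lower in Ctrl neurites (-1.38, adjusted p = 0.00962) and *Ina* in MG132 neurites (-1.69, adjusted p = 0.00736). The Ctrl comparison of neurites with somas called 1 of the 9 members higher and 0 lower, where 6.3% of all genes were called higher and 1.3% lower. With MG132 it called 2 higher and 0 lower, where 7.2% and 2.16% of all genes were. The 0 lower stands beside 0 members in Ctrl and 2 in MG132 with an unadjusted p under 0.05, 1 and 2 called with the block, and 0 by DESeq2 in both. The median log2 ratio of the members was 0.00082 in Ctrl and 0.12 in MG132. With the replicate block, 14.7% of all genes were called in Ctrl and 17.5% in MG132, in either direction. *Nefm* had a log2 ratio of neurites to somas of -0.65 in Ctrl (SE 0.35, adjusted p = 0.248), lower in neurites in 3 of 3 pairs, and the block called it (-0.66, edgeR adjusted p = 0.00996). Its ratio in MG132 was 0.29 (SE 0.34, adjusted p = 0.613), and that direction turned to -0.55 on total counts. *Ina* had a ratio of -0.82 in MG132 (SE 0.54, adjusted p = 0.338), and -0.95 with the block, which called it (edgeR adjusted p = 0.00636). *Nefl* and *Nefh* had ratios between -0.28 and 0.21, with intervals that reached from -0.87 to 0.82, and both turned sign with the scaling.

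**Figure D3:**
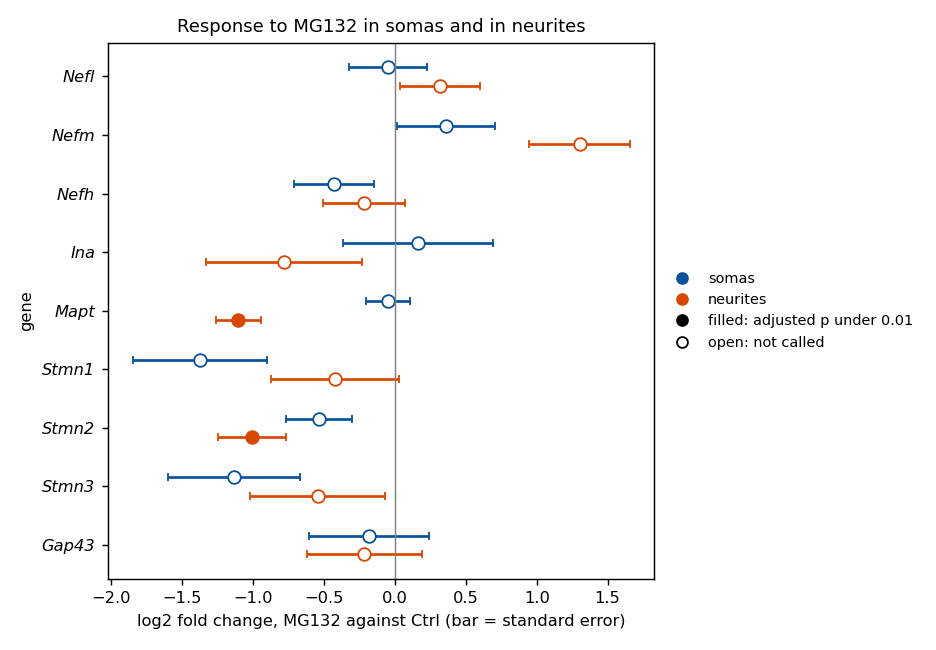
Log2 fold change of MG132 against Ctrl (x axis, bars are standard errors) for each gene (y axis) in somas and neurites, with filled points for an adjusted p under 0.01. *Mapt* and *Stmn2* in neurites are the filled points, and *Nefm* in neurites lies at 1.30 with an open point.

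*Mapt* mRNA fell in neurites with MG132, and in somas its difference did not pass the test. Tau is the main microtubule-associated protein of axons, whereas *Map2* marks dendrites. The Ctrl somas measured 113, 100 and 125 CPM and the MG132 somas 117, 112 and 97.2. The Ctrl neurites measured 185, 159 and 187 CPM and the MG132 neurites 89.2, 83.7 and 73.9. The soma groups overlapped, and the highest MG132 neurite library was well below the lowest Ctrl neurite library. In neurites the log2 fold change was -1.10 (SE 0.16, a level 2.15-fold lower, edgeR adjusted p = 0.000154), lower in 3 of 3 pairs. It was called in all 12 fits that left out 1 library, with adjusted p from 0.000281 to 0.00433, but not with library sizes set by the neuronal markers, where it was -0.86 (adjusted p = 0.204). The 12 neuronal markers had a median log2 fold change of -0.24 in neurites with MG132, and the 9 astrocyte markers one of -1.04, with 5 called lower. The medians were -1.61 for oligodendrocyte lineage markers (4 of 10 called lower), -1.62 for microglial markers (5 of 8) and -1.58 for fibroblast and mural markers (1 of 7). The part of these cells in the *Mapt* or *Stmn2* result was not tested. In somas it was -0.049 (SE 0.16, 95% interval -0.38 to 0.29, adjusted p = 0.853).

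The difference between these responses, neurites minus somas, was tested in the same model. None of the 9 members was called for it by edgeR, nor was any gene (0% of all genes, or 0.148% with the replicate block). At an unadjusted p under 0.05 there were 474 genes with a positive and 526 with a negative difference, and DESeq2 called 29 genes. Of the members, *Mapt* had an unadjusted p under 0.05, with a difference of -1.06 (SE 0.22, unadjusted p = 0.000280, edgeR adjusted p = 0.328). With the block it was -1.05 (edgeR adjusted p = 0.0175), still outside the threshold, and DESeq2 called it (adjusted p = 0.00690). The difference was negative in 3 of 3 same-numbered sets of libraries. For *Nefm* it was 0.94 (SE 0.49, edgeR adjusted p = 0.742), positive in 3 of 3 sets.

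Between fractions, *Mapt* was higher in each Ctrl neurite library than in each Ctrl soma library, with a log2 ratio of 0.65 (SE 0.16, edgeR adjusted p = 0.0114), just outside the threshold. The block called it (0.65, edgeR adjusted p = 0.00171), and so did DESeq2 (adjusted p = 0.00312). This direction depended on the scaling: on total counts the ratio was -0.022, which lies 0.68 above the median of all genes under that scaling, and 0.69 above it under TMM. In MG132 each neurite library was below each soma library, with a ratio of -0.40 (SE 0.16, edgeR adjusted p = 0.0941) that turned to 0.18 with library sizes set by neuronal markers and was called on total counts (-1.18, adjusted p = 0.00507). Comparisons that share libraries, as these do, are not independent of each other.

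*Stmn1*, *Stmn2* and *Stmn3* had lower levels with MG132 in every same-numbered pair of both fractions. Only 1 of these differences, *Stmn2* in neurites, was called. *Stmn4*, a stathmin tested among the other genes of the cytoskeleton, went the other way in every same-numbered pair. It measured 44.9, 35.4 and 72.3 CPM in Ctrl somas and 91.7, 46.4 and 123 in MG132 somas. In neurites *Stmn4* measured 42.3, 32.9 and 39 CPM in Ctrl and 68.7, 74.4 and 68 in MG132. Its soma groups overlapped and its neurite groups did not. *Stmn2* encodes the neuronal stathmin SCG10 of growth cones. It measured 84.9, 68.1 and 72.9 CPM in Ctrl somas and 60.0, 49.8 and 46.1 in MG132 somas. In neurites the levels were 81.5, 58.2 and 48.1 CPM in Ctrl and 42.2, 26.4 and 25.2 in MG132. Neither pair of groups overlapped. *Stmn2* fell in neurites by 1.01 on the log2 scale (SE 0.24, a level 2.01-fold lower, edgeR adjusted p = 0.00612), and in somas the log2 fold change was -0.54 (SE 0.23, adjusted p = 0.104, or 0.0116 with the block). The neurite call was lost in 10 of 12 fits that left out 1 library, with an adjusted p of up to 0.0779, and was kept without MG132 neurites replicate 1 or MG132 soma replicate 2. It was also lost on total counts, where the value was -1.13 (adjusted p = 0.0170), with the most abundant gene and mitochondrial genes left out (-0.89, adjusted p = 0.0166), with neuronal markers (-0.73, adjusted p = 0.238) and with only the groups compared, and was kept with the block (-1.01, edgeR adjusted p = 5.38e-05) and by DESeq2 (adjusted p = 0.00106).

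*Stmn1*, the ubiquitous stathmin, which dividing and immature cells also express, had the lowest level per length in somas. It measured 3.66, 10.1 and 5.41 CPM in Ctrl somas and 2.68, 1.39 and 2.95 in MG132 somas, where the counts were 29, 7 and 72. In neurites it measured 13.8, 19.2 and 9.08 CPM in Ctrl and 7.76, 15.6 and 7.63 in MG132. The soma groups did not overlap, and the neurite groups did. With MG132 the log2 fold change came to -1.38 in somas (SE 0.47, edgeR adjusted p = 0.0427) and -0.42 in neurites (SE 0.45, adjusted p = 0.519). Glial markers were lower in MG132 somas too, with medians of -1.19 for astrocytes (6 of 9 called lower), -1.32 for the oligodendrocyte lineage (3 of 10) and -1.40 for microglia (4 of 8), and their part in the *Stmn1* value was not tested. The log2 ratio of neurites to somas was 1.15 in Ctrl (SE 0.46, adjusted p = 0.109), where the groups overlapped. In MG132 it was 2.10 (SE 0.48, a level 4.29-fold higher, edgeR adjusted p = 0.00678), and the groups did not overlap. That call was lost without MG132 soma replicate 1, 2 or 3 or MG132 neurites replicate 2 (adjusted p up to 0.0504) and on total counts (1.42, adjusted p = 0.0525), and was kept with the block (1.90, adjusted p = 0.00181).

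*Stmn3*, a neuronal stathmin with a membrane anchor, measured 11.7, 18.6 and 5.85 CPM in Ctrl somas and 5.55, 6.15 and 4.88 in MG132 somas. Its neurite levels were 11.1, 9.84 and 5.21 CPM in Ctrl and 9.13, 5.88 and 3.02 in MG132. The groups overlapped in both fractions, since Ctrl soma replicate 3 lay within the range of MG132 somas. The log2 fold changes were -1.14 (95% interval -2.13 to -0.14, edgeR adjusted p = 0.0844) in somas and -0.54 (-1.56 to 0.47, adjusted p = 0.427) in neurites. Neurites and somas gave log2 ratios of -0.47 in Ctrl and 0.12 in MG132, with adjusted p of 0.566 and 0.899. *Stmn2* had a log2 ratio of -0.27 in Ctrl (95% interval -0.77 to 0.23, adjusted p = 0.503), lower in neurites in 3 of 3 pairs, which was -0.99 on total counts (adjusted p = 0.0288) and turned to 0.26 with neuronal markers. In MG132 it was lower in each neurite library than in each soma library, with a ratio of -0.74 (SE 0.24, edgeR adjusted p = 0.0429) that was called with the block (-0.76, edgeR adjusted p = 0.00133) and on total counts (-1.55, adjusted p = 0.00115).

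*Gap43* was higher in neurites than in somas in both treatments, with the largest ratio of the 9 genes, and its MG132 and Ctrl libraries overlapped in each fraction. In Ctrl it measured 13.1, 34.5 and 22.4 CPM in somas and 64.6, 160 and 172 in neurites. In MG132 it measured 15.4, 30.5 and 16.5 CPM in somas and 72.1, 165 and 103 in neurites. Every neurite library was above every soma library. The log2 ratio of neurites to somas was 2.51 in Ctrl (SE 0.43, a level 5.71-fold higher, edgeR adjusted p = 0.000921) and 2.48 in MG132 (SE 0.43, 5.57-fold, edgeR adjusted p = 0.00109). Both calls held in all 12 fits that left out 1 library, with adjusted p of up to 0.00730 and 0.00707. They also held on total counts, where the ratios were 1.92 and 1.79, and with neuronal markers, where they were 3.17 and 3.10. The difference of the MG132 response between fractions was -0.036 (95% interval -1.29 to 1.21, adjusted p = 0.995). MG132 against Ctrl gave -0.18 in somas (-1.08 to 0.72, adjusted p = 0.790) and -0.22 in neurites (-1.08 to 0.65, adjusted p = 0.729).

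The summed astrocyte markers moved with *Gap43* and *Stmn1* between fractions. All 9 of these markers were detected in every group, and of them 3 were called higher and 1 lower in Ctrl neurites than in somas, with a median log2 ratio of -0.095, and 5 higher and 1 lower in MG132, with a median of 0.69. *Gfap*, the astrocyte filament gene, had a log2 ratio of 3.18 in Ctrl and 3.14 in MG132, well above these medians. The negative median in Ctrl means that the higher sum there did not stand for most of the list. Oligodendrocyte lineage markers summed to 1640 to 6760 CPM in Ctrl somas and 5230 to 22400 in Ctrl neurites, with a median log2 ratio of 0.057 over the 10 genes. The part of these cells in the *Gap43* and *Stmn1* ratios was not tested. Libraries numbered 1 held the lowest *Gap43* level in all 4 groups, against the highest *Nefl*. Per 1000 counts on the 12 neuronal markers, *Gap43* ranged from 8.39 to 31.3 counts in Ctrl somas and from 50.6 to 283 in Ctrl neurites, without overlap.

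**Figure D4:**
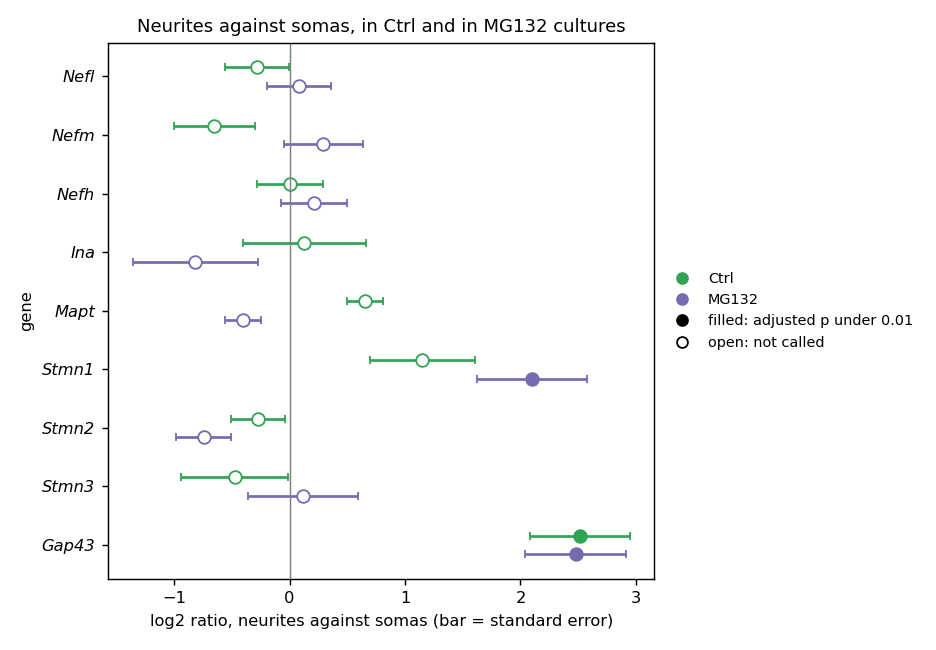
Log2 ratio of neurites to somas (x axis, bars are standard errors) for each gene (y axis) in Ctrl and MG132 cultures, with filled points for an adjusted p under 0.01. *Gap43* lies at 2.51 and 2.48, the filled *Stmn1* point at 2.10 in MG132, and *Mapt* at 0.65 in Ctrl and -0.40 in MG132, which turned to -0.022 on total counts and 0.18 with neuronal markers.

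Ratios of counts within a library do not depend on its scaling. The pairs were chosen after the levels had been seen, and 24 comparisons were made by a two-sided exact permutation test, which with 3 libraries against 3 cannot give a p below 0.1. The ratio of *Nefm* to *Nefl* was 0.981, 0.820 and 0.805 in Ctrl neurites and 1.49, 2.15 and 1.86 in MG132 neurites, with no overlap (exact permutation p = 0.1, adjusted p = 0.24). In somas it was 1.26, 0.899 and 1.23 in Ctrl and 1.85, 1.03 and 1.46 in MG132, with overlap (exact permutation p = 0.4, adjusted p = 0.565). *Nefm* was thus the more counted of the pair in each MG132 neurite library and the less counted in each Ctrl neurite library. *Ina* to *Nefl* was 0.523, 0.210 and 0.266 in Ctrl neurites and 0.209, 0.121 and 0.135 in MG132 neurites, and *Nefh* to *Nefl* went from between 0.276 and 0.321 to between 0.176 and 0.250, again without overlap.

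*Mapt* was compared with *Map2*, the microtubule-associated gene of dendrites. The ratio was 0.202, 0.248 and 0.338 in Ctrl neurites and 0.105, 0.158 and 0.131 in MG132 neurites, without overlap (exact permutation p = 0.1, adjusted p = 0.24). In somas the ratio was 0.248, 0.268 and 0.471 in Ctrl and 0.287, 0.421 and 0.341 in MG132, and the groups overlapped. *Gap43* to *Mapt* was 0.116 to 0.344 in Ctrl somas and 0.349 to 1.01 in Ctrl neurites, and 0.131 to 0.272 and 0.808 to 1.97 in the MG132 fractions. *Stmn2* to *Stmn1* was 6.75 to 23.2 in Ctrl somas and 3.02 to 5.92 in Ctrl neurites, and 15.6 to 35.9 and 1.69 to 5.44 with MG132.

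**Figure D5:**
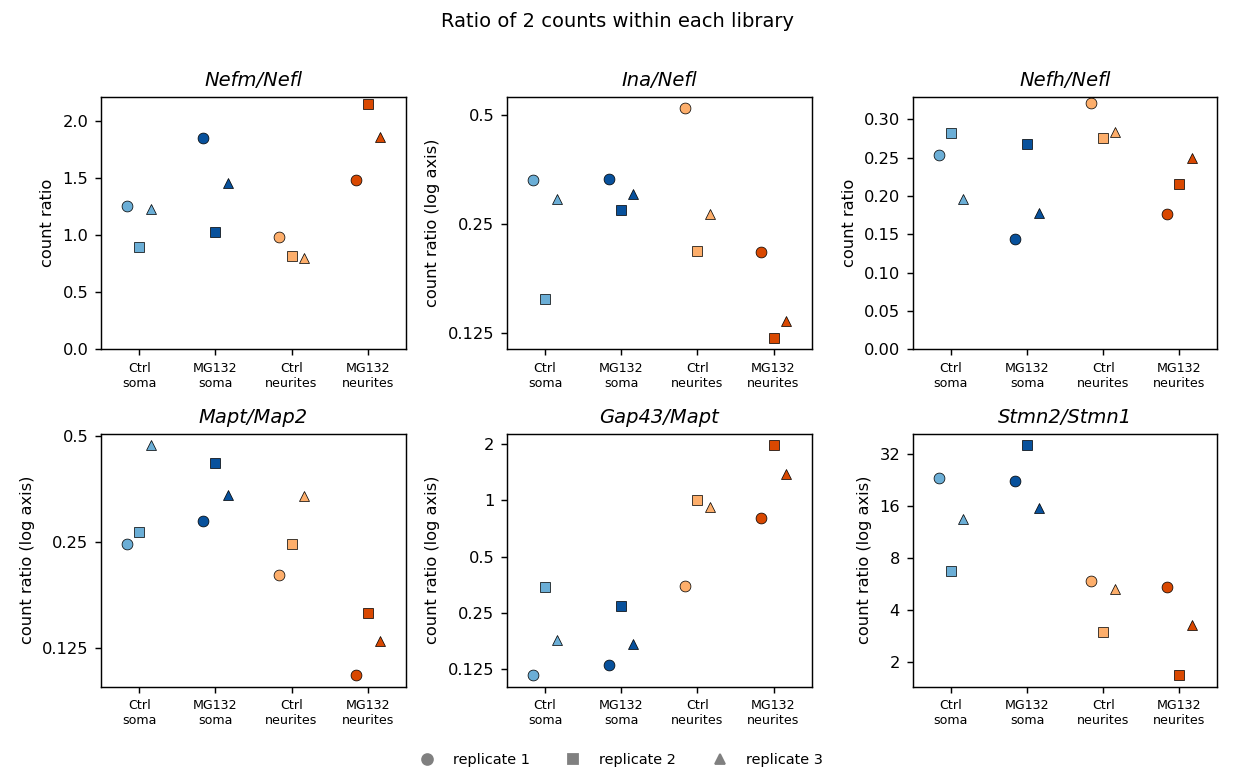
Ratio of 2 genes' counts within each library (y axis, from 0 for *Nefm*/*Nefl* and *Nefh*/*Nefl*, log axis for the others) by group (x axis), with symbols for replicates. *Nefm*/*Nefl* lies at 0.805 to 0.981 in Ctrl neurites and 1.49 to 2.15 in MG132 neurites, and *Mapt*/*Map2* is lowest in MG132 neurites.

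Other genes of axon growth and the cytoskeleton were taken from a list of 95, of which 89 were tested. With MG132, 13 were called higher and 5 lower in somas, and 16 higher and 4 lower in neurites. The shares of all genes called were 9.52% higher and 5.72% lower in somas and 9.76% and 5.67% in neurites, so the numbers called lower were near the share of all genes. Their median came to 0.14 (log2) for somas and to -0.083 for neurites, beside -0.070 and -0.16 over all genes. Genes listed for axon injury and regeneration held the largest called increases: of 15 tested, 6 rose and 1 fell in somas, and 7 rose and 1 fell in neurites. That class lists 19 genes, of which *Sprr1a*, *Gal*, *Ankrd1* and *Csrp3* did not pass the filter on low counts. *Hspb1*, a small heat shock protein, rose by 5.28 in somas and 4.58 in neurites on the log2 scale (edgeR adjusted p = 5.60e-06 and 1.46e-05). *Atf3*, a transcription factor induced by axon injury, rose by 4.94 and 4.25, and *Gadd45a*, a stress-induced growth arrest gene, by 2.59 and 3.40. *Adcyap1*, the gene of the neuropeptide PACAP, changed the other way, at -2.99 and -2.40.

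Of 18 growth cone proteins, the class of *Gap43*, 4 fell in somas and 3 in neurites, with median log2 fold changes of -0.46 and -0.58, where 5.72% and 5.67% of all genes were called lower. The glial markers given above were lower with MG132 in the same libraries, and their part in this class was not tested. *Marcks*, a membrane protein that binds actin, measured 151, 254 and 164 CPM in Ctrl somas and 44.8, 65.0 and 52.1 in MG132 somas, a log2 fold change of -1.81 (edgeR adjusted p = 0.00261), and it was -1.78 in neurites. *Dpysl2*, the collapsin response mediator CRMP2, had -1.29 in somas and -1.07 in neurites. Of 15 tau kinases and tau turnover genes, 2 rose in each fraction, and of 17 microtubule-associated proteins, 2 rose in somas and 5 in neurites. Beside the 9.52% and 9.76% of all genes called higher, the counts of 2 are near the share of all genes.

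Between fractions, 6 of the 89 genes were called higher and 2 lower in Ctrl neurites, and 9 higher and 2 lower in MG132 neurites. These counts are near the shares of all genes, which were 6.3% higher and 1.3% lower in Ctrl and 7.2% and 2.16% in MG132. *Nes*, an intermediate filament gene of neural progenitors and reactive astrocytes, had a log2 ratio of 3.39 in Ctrl and 2.04 in MG132. *Map4*, a gene of a microtubule-associated protein, had 2.87 and 2.22, and *Mapre1*, a protein of growing microtubule ends, had 2.03 in Ctrl. *Lgals1* was called higher in MG132 neurites at 1.56. *L1cam*, an axonal adhesion molecule, was lower in neurites, at -1.68 and -1.48, *Mapre3* was lower at -0.82 in Ctrl, and *Map3k12*, the axon injury kinase DLK, was lower at -1.32 in MG132. The summed astrocyte markers given above moved with *Nes*, although the median log2 ratio of these markers was -0.095 in Ctrl, and their part was not tested. None of the 89 was called for the difference of the MG132 response by edgeR, where 4 had a positive and 4 a negative difference at an unadjusted p under 0.05, and DESeq2 called 1.

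The genes whose profile over the 12 libraries was most like the mean of the neurofilament subunits were *Syn1* (Pearson r = 0.92), *Kcnt2* (0.918) and *Eef1a2* (0.918), among 8217 genes with at least 10 CPM. Those most like the mean of *Stmn1*, *Stmn2*, *Stmn3* and *Gap43* were *Mpdz* (0.964), *Rab27b* (0.961) and *Cyp39a1* (0.952). That mean joins genes with opposite directions between Ctrl fractions. The log2 ratios of neurites to somas were 2.51 for *Gap43* and 1.15 for *Stmn1*, against -0.27 for *Stmn2* and -0.47 for *Stmn3*. A gene like the mean need not be like each of them. These correlations are descriptions over libraries that share cultures, treatments and fractions.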

How the data were processed

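The authors trimmed reads with Trimmomatic 0.38.0, aligned them as single-end reads to mm10 with STAR, and counted them with featureCounts 2.0.1 at default settings. The versions are from the submitters' processing notes and the paper. The deposited values are whole-number counts per gene, without normalization, one file per library. Whether the counting used strand beyond the default, and which gene models, is not given in the sources used here. Symbols and loci came from RefSeq (GRCm38), and lengths and sequences from GENCODE M21.

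The analysis used edgeR 4.0.16 under R 4.3.3. Low genes were removed by filterByExpr on the groups, libraries were scaled by TMM, and a single quasi-likelihood fit over the 12 libraries held a mean for each group. P-values were adjusted by Benjamini-Hochberg over 14185 genes, with calls at an adjusted p under 0.01. A standard error is the size of the log2 change over the root of its F statistic. The median standard error over all genes was 0.357 to 0.365 for single comparisons and 0.507 for the difference of responses.

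All 9 members are named throughout. From the pathway list, the 3 called genes with the largest change in each direction and at least 1 CPM are named, and the 3 genes most alike in profile with at least 10 CPM. *Stmn4* and *Map2* are named outside this rule, for comparison with members. The members and lists were chosen with earlier results of these data known. Alternatives were DESeq2 1.42.0, DESeq2 size factors, total counts, neuronal marker scaling, other filters and thresholds, only the groups compared, the replicate block, and each library left out in turn. The model was also run on simulated counts with known changes in MG132 neurites. These counts held no replicate effect and no other difference in composition between libraries, so that run cannot show how the model handles either. No result above rests on it.

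The replicate numbers in the labels are shared by the groups. Over all genes, same-numbered libraries deviated together from their group means, with correlations of 0.165 to 0.248 in the 4 comparisons. For other numbers the means were -0.117 to -0.0936. Because deviations from a group mean cancel out, positive values for same numbers force negative ones for other numbers, which add no separate evidence of pairing. The numbers were taken as pairs on the same-numbered correlations, and the block is given where it changes a call. Dates in the library names also follow the numbers, except for MG132 neurites replicate 3, on which the blocked values and pair counts that include MG132 neurites partly rest.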

Additional observations from a re-analysis of the deposited data

Results flagged for a closer look

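The difference between the MG132 responses of *Mapt* in neurites and somas is listed because its own test gave an adjusted p under 0.05 with the replicate block, although edgeR did not call it at 0.01. The difference of the log2 fold changes was -1.05 with the replicate number as a block (edgeR adjusted p = 0.0175), -1.06 without the block (adjusted p = 0.328), and it was called by DESeq2 (adjusted p = 0.00690). It was negative in 3 of 3 same-numbered sets. The limit of 0.05 for this listing was chosen after the values had been seen. The cause was not tested.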

How the results depend on the processing

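Of 931 values of the members under alternatives, 832 kept their direction and side of the threshold, 21 lost a call, 19 gained one and 59 changed sign, none of which was called in the model reported. Most of the 931 belong to results that were not called and could not lose a call, so the 21 are not to be read as a share of 931. In the 12 fits that left out 1 library, *Stmn2* in neurites lost its call in 10 and *Stmn1* between MG132 fractions in 4. *Mapt* in neurites and *Gap43* between fractions kept theirs in all 12. The cause of these changes was not tested. Precision is limited by 3 libraries a group: the members' standard errors ran from 0.16 to 0.55 (log2) within a fraction or treatment, and *Stmn1* rested on as few as 7 counts in a library.

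With the replicate block, members called went from 1 to 3 in Ctrl fractions and from 2 to 4 in MG132 fractions, and pathway genes to 31 in somas, 34 in neurites, 14 in Ctrl and 24 in MG132 fractions; *Nefh* turned to -0.016 in Ctrl and *Stmn3* to -0.037 in MG132 fractions. It changed no member's call other than those given beside the results.

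On total counts, members called were 1 in neurites, 2 in Ctrl and 4 in MG132 fractions, and pathway genes 8 in somas, 8 in neurites and 23 in MG132 fractions. Neurites against somas turned to -0.73 for *Nefh*, -0.67 for *Ina* and -0.022 for *Mapt* in Ctrl, and to -0.78 for *Nefl*, -0.55 for *Nefm*, -0.63 for *Nefh* and -0.63 for *Stmn3* in MG132. With neuronal marker scaling, members called in neurites were 0, and pathway genes 5 in somas, 4 in neurites, 4 in Ctrl and 7 in MG132 fractions. MG132 against Ctrl turned to 0.18 for *Nefl*, 0.21 for *Mapt* and 0.10 for *Gap43* in somas, and to 0.063 for *Nefh* and 0.029 for *Gap43* in neurites. Neurites against somas turned to 0.25 for *Nefl*, 0.26 for *Stmn2* and 0.0087 for *Stmn3* in Ctrl, and to 0.18 for *Mapt* in MG132.

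*Nefh* in Ctrl fractions, at 0.00082, also turned to -0.040 with DESeq2 size factors, -0.041 with DESeq2, -0.072 without the most abundant and mitochondrial genes, -0.077 without a filter and -0.053 with 10 counts in every library; the *Gap43* difference of responses turned to 0.056 without those genes and 0.074 without a filter. DESeq2 called 2 members in Ctrl fractions, 1 member and 1 pathway gene for the difference of responses, and 17 pathway genes in MG132 fractions. The filter of 10 counts in every library, which *Stmn1* did not pass, and the fit of only the groups compared each left 1 member called in MG132 fractions; the latter has no value for the difference of responses. At an adjusted p under 0.05, 1 member was called in somas and 2 in Ctrl fractions, and pathway genes were 32 in somas, 35 in neurites, 13 in Ctrl and 19 in MG132 fractions. With an added log2 limit of 1.7, 0 members were called in neurites, and pathway genes were 6 in somas, 6 in neurites, 3 in Ctrl and 2 in MG132 fractions.

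Leaving out 1 library at a time, members called ranged from 1 to 3 in neurites and from 1 to 2 in MG132 fractions, and pathway genes from 5 to 8 in Ctrl and 6 to 15 in MG132 fractions. Pathway calls fell most without Ctrl soma replicate 1 in Ctrl (5), and without MG132 soma replicate 1 (7), MG132 neurites replicate 2 (6) or MG132 neurites replicate 3 (7) in MG132 fractions. Uncalled members spanned 0 for MG132 in somas (*Nefl* -0.27 to 0.097, *Nefm* -0.12 to 0.66, *Ina* -0.14 to 0.51, *Mapt* -0.12 to 0.035, *Gap43* -0.53 to 0.21) and in neurites (*Nefl* -0.086 to 0.58, *Nefh* -0.43 to 0.076, *Ina* -1.55 to 0.021, *Gap43* -0.60 to 0.12). They did so between Ctrl fractions (*Nefh* -0.29 to 0.11, *Ina* -0.67 to 0.42), between MG132 fractions (*Nefl* -0.32 to 0.36, *Nefm* -0.0037 to 0.83, *Stmn3* -0.25 to 0.48) and for the difference of responses (*Nefl* -0.042 to 0.65, *Gap43* -0.42 to 0.35).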
